A study of Rhodotorula toruloides with 9 samples.

Results

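The genes for the enzymes of d-galacturonic acid (d-galUA) breakdown in the red basidiomycete yeast R. toruloides IFO 0880 were RTO4_11882, RTO4_12062, RTO4_12061 and RTO4_9774. They were chosen by protein number, as the homologs of GAR1, GaaB, GaaC and GaaD of filamentous fungi, and are 4 of the 8578 gene models in the tables. On d-galUA all 4 genes were among the 11 most abundant transcripts, while on glycerol and d-glucose (d-glc) they ranked between 164 and 3872. The 4 steps were present at levels within a factor of 2.38 to 2.64 of each other on d-galUA, and of 8.42 to 31.3 on the other carbon sources. The study grew wild-type cultures in yeast nitrogen base with d-galUA, glycerol or d-glc as the carbon source, and compared mRNA by RNA-seq to find the genes for d-galUA use. The labels place the harvest in log phase and the paper gives triplicate cultures. The paper's text differs between sections on the substrate concentration and on the growth phase at harvest.

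In ascomycetes, d-galUA is broken down without phosphorylation of the sugar acid. A reductase (GAR1 in Trichoderma reesei) makes l-galactonate at the expense of NADPH. A dehydratase (GaaB in Aspergillus niger, Lgd1 in T. reesei) takes water from l-galactonate to give a keto-deoxy sugar acid. An aldolase (GaaC, Lga1) splits this into pyruvate and l-glyceraldehyde, and a second NADPH-dependent reductase (GaaD, Gld1) turns l-glyceraldehyde into glycerol. The sugar acid is the main building block of pectin, and in pectin-degrading fungi these genes are known for induction by it.

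Each of the 9 libraries was of bulk mRNA from a culture, so a change in the share of cells that make a transcript cannot be told apart from a change per cell. The labels give 3 d-galUA, 2 glycerol and 4 d-glc libraries. The library labelled d-glc replicate 4 was counted with glycerol, because the glycerol means of the study's table matched the libraries labelled glycerol plus this one, with a median difference of 5.96e-05% over 1999 genes, against 9.83% for the next best of 84 sets of 3 libraries. Across genes, its log2(FPKM + 1) had a Pearson correlation of at least 0.987 with the libraries labelled glycerol and of at most 0.907 with any library of the other groups. Depth was between 25.8 M and 51.9 M mapped reads (M, mega), with the lowest in that library. Values are FPKM (fragments scaled to gene length and mapped reads), which allow levels of different genes to be compared per length. FPKM is relative to the other transcripts of a library, and no value per cell was measured.

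In the coordinates of the version 4 gene models, RTO4_12061 is found on scaffold 2, minus strand, at 373079 to 374655, and RTO4_12062 on the plus strand of the same scaffold at 376601 to 378918. RTO4_11882 lies on scaffold 18 (plus strand, 284007 to 285546) and RTO4_9774 on scaffold 11 (plus strand, 195622 to 197457). Of other gene models, 0 overlapped any of the 4 genes. The deposited tables give the span of each gene and not its exons. RTO4_11882 and RTO4_9774 have the same yeast relatives (YPR1 and GCY1, aldo-keto reductases) in the study's annotation, and how alike their sequences are was not analysed here.

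RTO4_11882, the d-galUA reductase that opens the pathway, reached 7070, 7516 and 8414 FPKM with d-galUA as carbon source. The libraries labelled glycerol gave 60.7 and 59.1, and that labelled d-glc replicate 4 gave 71.5. On d-glc it had 100.4, 141 and 113. Every d-galUA library was above all others, and every glycerol library was below every d-glc library. Log2 fold changes are on the scale of log2(FPKM + 1), which understates ratios of low values, slightly for this gene and strongly well below 1 FPKM. The log2 fold change was 6.89 (SE 0.14, 95% interval 6.58 to 7.19, limma adjusted p = 4.20e-10) on d-galUA against glycerol. Against d-glc it was 6.02 (SE 0.14, 95% interval 5.71 to 6.32, limma adjusted p = 3.58e-10).

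RTO4_12062, the l-galactonate dehydratase, was the most abundant of the 4 transcripts on d-galUA, with an FPKM of 9607, 9800 and 10130. It was at 45.3 and 49.2 in the libraries labelled glycerol and at 77.4 in that labelled d-glc replicate 4. The d-glc libraries had 22.5, 27.2 and 26.9. The 3 carbon sources did not overlap. The highest value outside d-galUA came from the library whose label and group differ. The log2 fold change was 7.44 (SE 0.17, 95% interval 7.05 to 7.83, limma adjusted p = 7.21e-10) on d-galUA against glycerol and 8.54 (SE 0.17, 95% interval 8.15 to 8.93, limma adjusted p = 2.04e-10) against d-glc. Without the library labelled d-glc replicate 4 the value against glycerol was 7.67.

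RTO4_12061, the aldolase that yields pyruvate and l-glyceraldehyde, had an FPKM of 6072, 6337 and 6783 on d-galUA. The libraries labelled glycerol had 111 and 168 and that labelled d-glc replicate 4 had 124. On d-glc it had 20.3, 34.0 and 19.2. Again the 3 carbon sources did not overlap, with glycerol between the others. Its log2 fold change for d-galUA against glycerol was 5.58 (SE 0.21, 95% interval 5.11 to 6.05, limma adjusted p = 1.63e-08). It was 8.02 (SE 0.21, 95% interval 7.55 to 8.49, limma adjusted p = 9.35e-10) against d-glc.

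RTO4_9774, the l-glyceraldehyde reductase that completes the pathway, had an FPKM of 3639, 4054 and 4251 on d-galUA. Glycerol gave 791 and 705, and 602 for the library with the d-glc replicate 4 label. On d-glc it had 457, 516 and 599.9. The d-galUA libraries were above the rest, and the lowest glycerol value, from the library whose label and group differ, lay just above the highest d-glc value. The log2 fold change was 2.51 (SE 0.14, 95% interval 2.20 to 2.83, limma adjusted p = 2.82e-07) on d-galUA against glycerol and 2.93 (SE 0.14, 95% interval 2.61 to 3.24, limma adjusted p = 8.01e-08) against d-glc. These intervals lie wholly below those of the other 3 genes in the same comparison.

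**Figure D1:**
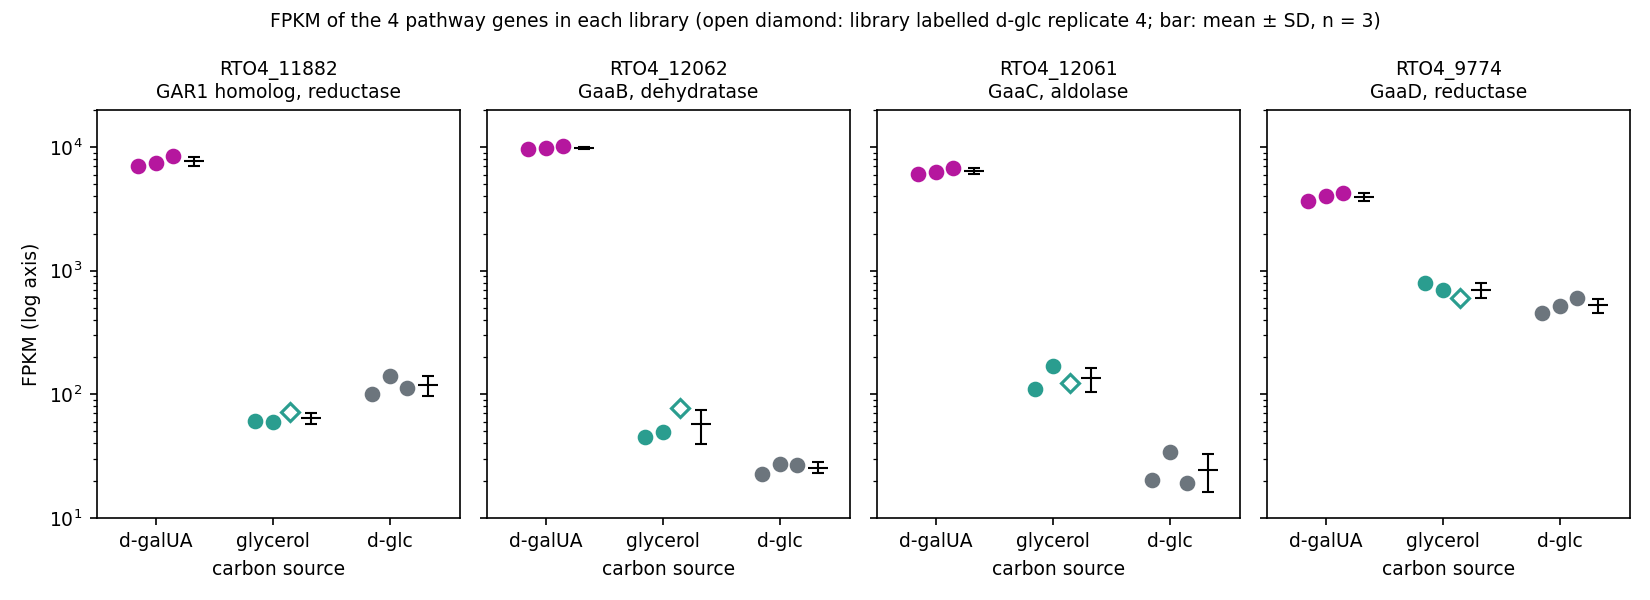
FPKM of each pathway gene (log axis) in each library on d-galUA, glycerol and d-glc, with the mean ± SD of 3 libraries beside the points and an open diamond for the library labelled d-glc replicate 4. On d-galUA the 4 genes lie between 3639 and 10130, and elsewhere between 19.2 and 791.

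Counting genes with a limma adjusted p under 0.05, an FPKM of 5 or more and at least a 2-fold difference in mean FPKM, 4 of the 4 pathway genes were higher on d-galUA than on glycerol, against 6.95% of the 8479 genes tested. Against d-glc, 4 of 4 were higher, where 8.24% of all genes were. By adjusted p alone 25.2% of all genes were higher on d-galUA than on glycerol and 24.9% higher than on d-glc. In the opposite direction there were 0 of 4 pathway genes in both comparisons by limma, at an unadjusted p under 0.05 as well. The same held for Ballgown's test, rewritten here as a linear model for each pair of carbon sources. Of all genes, 24.1% were lower than on glycerol and 25.8% lower than on d-glc by adjusted p alone, and 7.7% and 7.44% with the other criteria. The comparisons share the d-galUA libraries. The study listed these 4 genes as induced on d-galUA in the same libraries, so these counts and the places that follow are not independent evidence. Ordered by log2 fold change against glycerol among all genes tested, RTO4_12062 was at place 2, RTO4_11882 at place 3, RTO4_12061 at place 12 and RTO4_9774 at place 101. Against d-glc the places were 2 for RTO4_12062, 3 for RTO4_12061, 19 for RTO4_11882 and 100 for RTO4_9774. With groups taken from the labels, the 4 log2 fold changes against glycerol were between 2.41 and 7.67 and those against d-glc between 2.88 and 8.15, each still past the threshold.

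The basal levels without d-galUA differed between glycerol and d-glc, and not in the same direction for each step. The aldolase gene RTO4_12061 was 5.49-fold higher on glycerol than on d-glc in mean FPKM, with a log2 fold change of 2.43 (SE 0.21, 95% interval 1.96 to 2.90, limma adjusted p = 5.01e-06). The dehydratase gene RTO4_12062 was also higher on glycerol, with a log2 fold change of 1.10 (SE 0.17, 95% interval 0.71 to 1.49, limma adjusted p = 4.11e-04). In contrast, the d-galUA reductase gene RTO4_11882 was lower on glycerol than on d-glc, with a log2 fold change of -0.87 (SE 0.14, 95% interval -1.18 to -0.56, limma adjusted p = 3.90e-04). The difference of RTO4_9774 was the smallest of the 4, a log2 fold change of 0.41 (SE 0.14, 95% interval 0.10 to 0.73, limma adjusted p = 0.0302).

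By adjusted p alone, 3 of 4 pathway genes were higher on glycerol, where 26.7% of all genes were, and 1 of 4 was lower, where again 26.7% were. With the 2-fold and FPKM criteria added, 2 of 4 were higher on glycerol (9% of all genes) and 0 of 4 lower (9.81% of all genes). The 0 rests on the mean of RTO4_11882 on glycerol being 0.539 times that on d-glc. This gene fell short of the fold criterion and not of the test, with an unadjusted p of 8.59e-05 by limma and an adjusted p of 0.0195 by Ballgown's test. By that test RTO4_12061 also passed (adjusted p = 0.0251), while RTO4_12062 (adjusted p = 0.0503) and RTO4_9774 (adjusted p = 0.17) did not. Without the library labelled d-glc replicate 4, RTO4_12062 was 1.85-fold higher on glycerol and no longer met the 2-fold criterion, its log2 fold change being 0.87 (limma SE 0.11, adjusted p = 2.56e-04). The values of RTO4_12061, RTO4_11882 and RTO4_9774 without it were 2.48, -0.96 and 0.52. With groups taken from the labels, none of these 4 differences passed the threshold, the log2 fold changes being 1.89, 0.47, -0.78 and 0.47 for RTO4_12061, RTO4_12062, RTO4_11882 and RTO4_9774 (limma adjusted p = 0.172, 0.469, 0.172 and 0.172). The call of RTO4_9774 was also lost without d-glc replicate 1 (0.32), d-glc replicate 2 (0.41), glycerol replicate 1 (0.32) or glycerol replicate 2 (0.40).

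**Figure D2:**
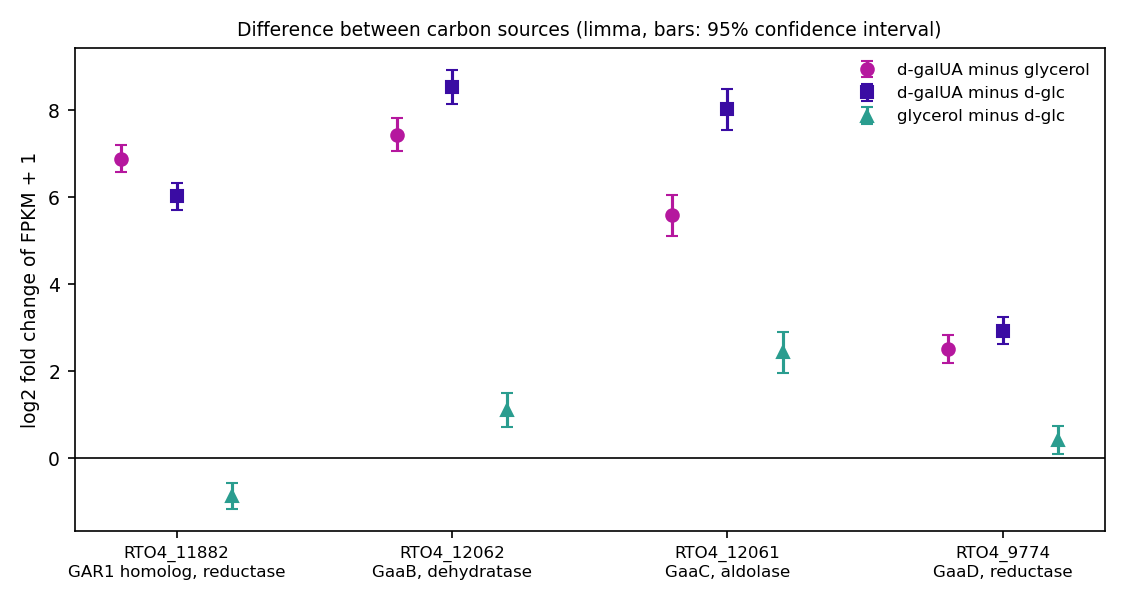
Log2 fold change of FPKM + 1 for each pathway gene on d-galUA against glycerol (circles), on d-galUA against d-glc (squares) and on glycerol against d-glc (triangles), with 95% intervals from limma. The d-galUA differences lie between 2.51 and 8.54, and between glycerol and d-glc RTO4_11882 is at -0.87 while RTO4_12061 is at 2.43.

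The balance between the pathway steps was read from ratios within a library, which are the same in FPKM and TPM and under any scaling of a library. On d-galUA the order was RTO4_12062, RTO4_11882, RTO4_12061 and RTO4_9774, from highest to lowest, in 3 of 3 libraries. The dehydratase made up 35.3 ± 1.08% of the summed FPKM of the 4 genes, the d-galUA reductase 27.5 ± 0.875%, the aldolase 22.9 ± 0.0692% and the l-glyceraldehyde reductase 14.3 ± 0.430% (SD, n = 3). The FPKM ranges of these neighbors in the order did not overlap. The highest step was 2.48 ± 0.139 times the lowest.

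On glycerol and d-glc the gene of the last step had the largest share. The paper found its enzyme active on l-arabinose and d-xylose too, so this share cannot be read as that of the pathway alone. RTO4_9774 held 73.0 ± 4.93% of the summed FPKM on glycerol and 75.7 ± 3.64% on d-glc (SD, n = 3). On glycerol the aldolase RTO4_12061 came next with 14.1 ± 3.05%, and RTO4_11882 and RTO4_12062 held 6.74 ± 1.24% and 6.12 ± 2.37%, with FPKM ranges that overlapped. On d-glc the d-galUA reductase RTO4_11882 came next with 17.1 ± 2.41%, and RTO4_12062 and RTO4_12061 held 3.69 ± 0.128% and 3.55 ± 1.12%, with overlapping ranges. Over the 2 libraries labelled glycerol alone, the shares were 75.2 ± 4.68% for RTO4_9774, 14.1 ± 4.31% for RTO4_12061, 6.03 ± 0.00386% for RTO4_11882 and 4.75 ± 0.371% for RTO4_12062 (SD, n = 2). The highest step was 13.4 ± 4.59 times the lowest on glycerol and 24.3 ± 6.32 times on d-glc.

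**Figure D3:**
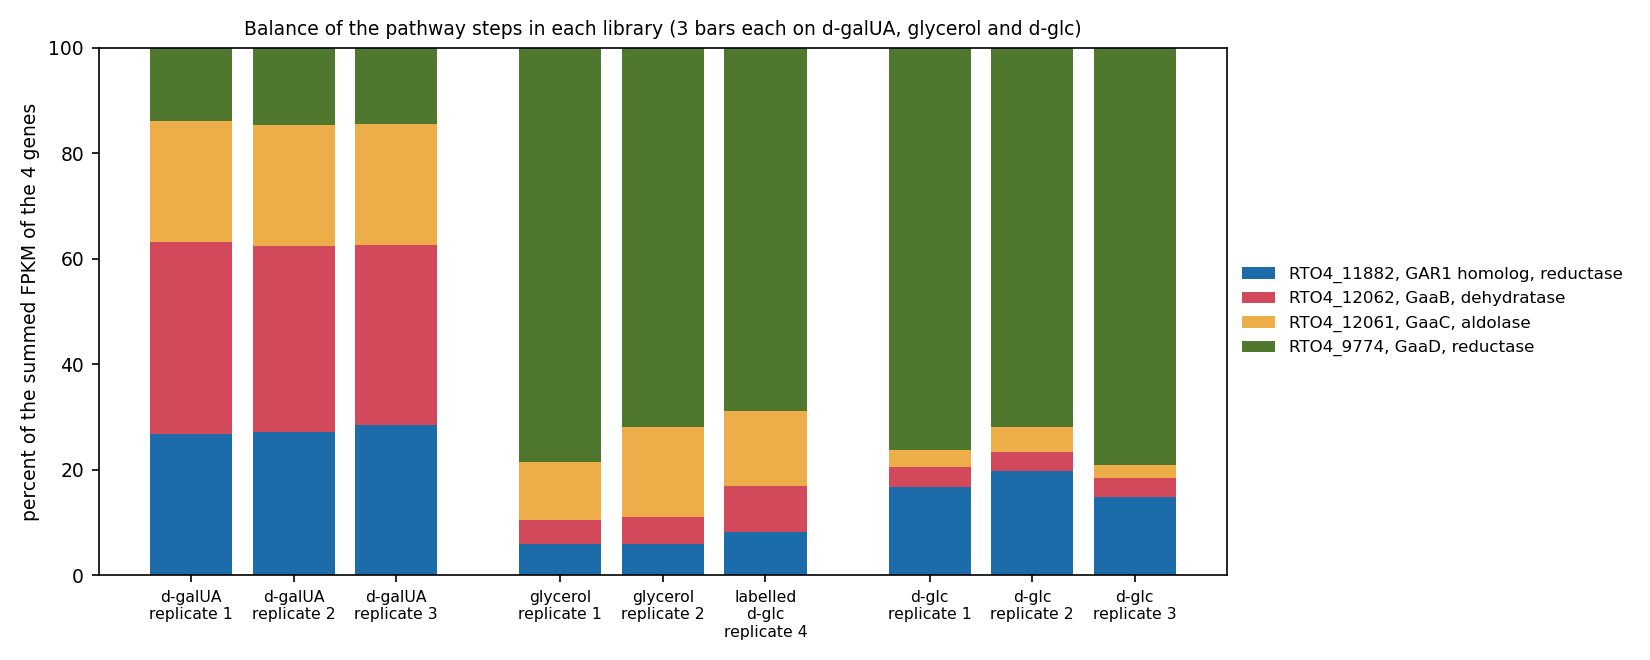
Share of each pathway gene in the summed FPKM of the 4 genes (percent), 1 bar per library, for d-galUA, glycerol (with the library labelled d-glc replicate 4) and d-glc. RTO4_9774 takes 13.8% to 14.6% on d-galUA and 68.8% to 79.0% in the other libraries.

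All 6 ratios between the genes differed between the carbon sources in an exact permutation test of the F statistic of log2 ratios, with p = 0.00357 each, the smallest that 3 groups of 3 libraries allow. The p was the same after adjustment over the 6 ratios, of which only 3 are independent. The ratio of dehydratase to aldolase (RTO4_12062 over RTO4_12061, near each other on the same scaffold) was 1.54 ± 0.0446 on d-galUA, 0.441 ± 0.168 on glycerol and 1.10 ± 0.303 on d-glc (SD, n = 3). It was thus above 1 in every d-galUA library and below 1 in every glycerol library, and on d-glc it ranged from 0.798 to 1.40. The ratio of the d-galUA reductase to the dehydratase, the first steps of the pathway, was 0.778 ± 0.0483 on d-galUA, 1.16 ± 0.213 on glycerol and 4.62 ± 0.522 on d-glc. The reductase at the start exceeded the reductase at the end 1.93 ± 0.0645 times on d-galUA, and was 0.0931 ± 0.0224 times as abundant on glycerol and 0.227 ± 0.0434 times on d-glc. With groups taken from the labels, RTO4_11882 over RTO4_12062 and RTO4_11882 over RTO4_12061 no longer passed 0.05 (exact permutation p = 0.0603 and 0.0889), and the other 4 ratios did. Without the library labelled d-glc replicate 4, all 6 had p = 0.00357 by the exact permutation test.

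By mean FPKM on d-galUA, the dehydratase RTO4_12062 ranked 2 of 8578, RTO4_11882 ranked 6, RTO4_12061 ranked 7 and RTO4_9774 ranked 11. Ranks in single libraries were 2 to 3 for RTO4_12062, 6 in all 3 for RTO4_11882, 7 to 8 for RTO4_12061 and 11 to 14 for RTO4_9774. The gene above RTO4_12062, RTO4_14937, had a mean FPKM of 22548 ± 1337, and the gene below it, RTO4_15825, had 9749 ± 263, which overlapped with 9845.8 ± 265 of RTO4_12062 (SD, n = 3). RTO4_12704 stood above RTO4_11882 with 9345 ± 661, and its range of 8586 to 9791 did not overlap that of RTO4_11882. RTO4_10325, below RTO4_12061, had 6046 ± 289, and RTO4_14719 and RTO4_12693, around RTO4_9774, had 4349 ± 461 and 3903 ± 80.7, each with a range that overlapped the neighboring pathway gene.

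On glycerol the ranks were 164 for RTO4_9774, 818 for RTO4_12061, 1683 for RTO4_11882 and 1857 for RTO4_12062. On d-glc they were 208 for RTO4_9774, 891 for RTO4_11882, 3753 for RTO4_12062 and 3872 for RTO4_12061. With groups taken from the labels the d-glc ranks were 202, 1024, 2727 and 2158 for RTO4_9774, RTO4_11882, RTO4_12062 and RTO4_12061. By mean FPKM, RTO4_12062 and RTO4_12061 on d-glc were close to the middle, above 56.2% and 54.9% of gene models. Their mean FPKM there was 1.21 and 1.16 times that of the median gene, which had 21.1. RTO4_9774 was 34.1 times the median gene on glycerol and 24.8 times on d-glc. In single d-glc libraries, the rank of RTO4_12061 ranged from 3064 to 4587, and in d-glc replicate 3 its FPKM was 0.890 times that of the median gene. Without d-glc replicate 2, the rank of its mean was 4393. The lowest coverage of any pathway gene was 38.6 reads per base, for RTO4_12062 in d-glc replicate 2, so the basal values do not rest on a few reads. Without the library labelled d-glc replicate 4, the glycerol ranks were 153, 789, 1759 and 2157 for RTO4_9774, RTO4_12061, RTO4_11882 and RTO4_12062.

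**Figure D4:**
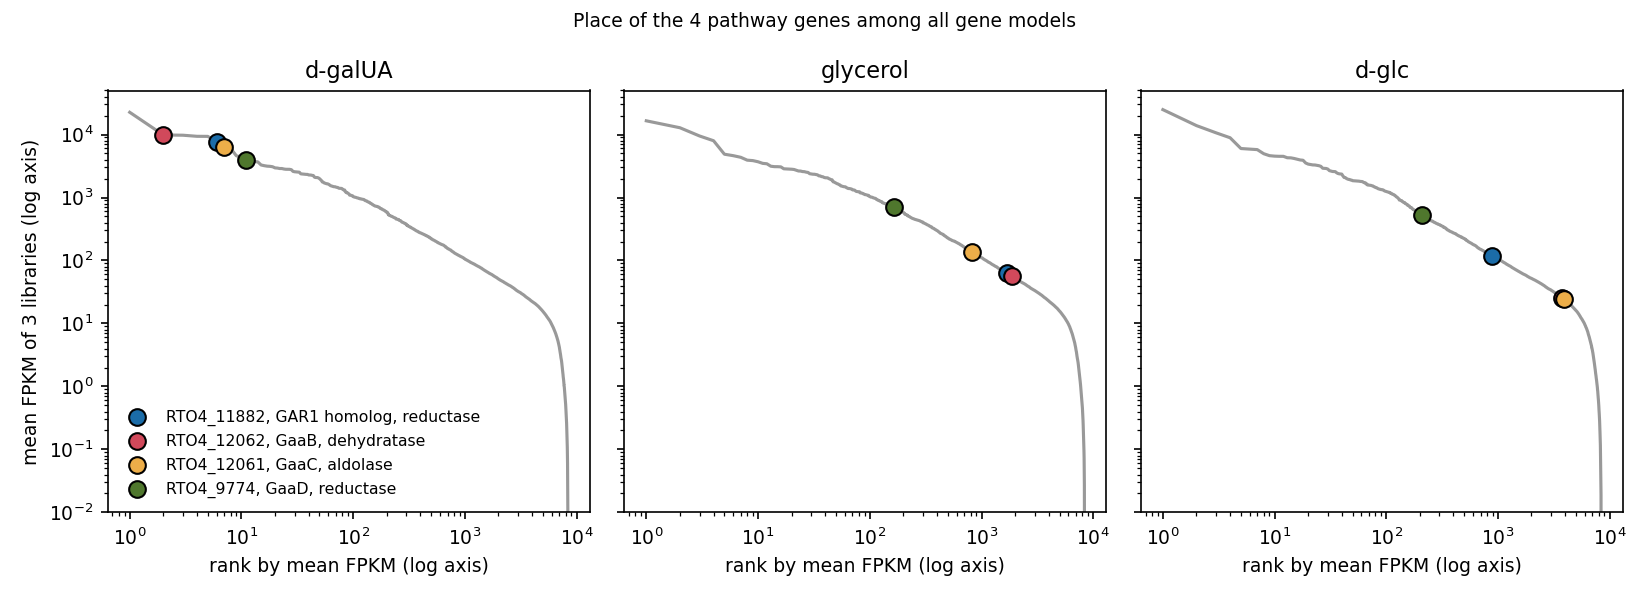
Mean FPKM of 3 libraries against rank for the gene models listed above 0 (gray line, both axes log) on d-galUA, glycerol and d-glc, with the 4 pathway genes as colored points. The points lie at ranks 2 to 11 on d-galUA, 164 to 1857 on glycerol and 208 to 3872 on d-glc.

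In TPM (the same estimate scaled to a common total), 1 FPKM was worth 1.41 to 1.43 TPM on d-galUA, 1.43 to 1.498 on glycerol and 1.29 to 1.46 on d-glc. RTO4_12062 had 13716 to 14274 TPM on d-galUA, 64.7 to 115 on glycerol and 31.6 to 39.7 on d-glc. RTO4_11882 had 10094 to 11856, 86.7 to 106 and 141 to 207 TPM on these carbon sources. RTO4_12061 had 8669 to 9558, 159 to 251 and 24.8 to 49.7 TPM. RTO4_9774 had 5196 to 5990, 897 to 1130 and 642 to 775 TPM, so that in TPM the gap between glycerol and d-glc was wider for this gene than in FPKM. Each gene thus had the same order of carbon sources in TPM as in FPKM, with no overlap between the groups as used here. The share of all genes without such overlap was not counted. RTO4_12062 alone held 1.40 ± 0.0281% of all TPM on d-galUA, against 0.00845 ± 0.00270% on glycerol and 0.00354 ± 0.000407% on d-glc (SD, n = 3). With groups taken from the labels its share on d-glc was 0.00553%, and that of RTO4_12061 was 0.00719% in place of 0.00343%. RTO4_9774 held 0.565 ± 0.0409% on d-galUA, 0.103 ± 0.0119% on glycerol and 0.0724 ± 0.00715% on d-glc.

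Replicates on d-galUA were close together for the dehydratase, whose coefficient of variation (CV) was 2.69%, and the CV was 8.93% for RTO4_11882, 5.62% for RTO4_12061 and 7.84% for RTO4_9774. Genes within 2-fold of these means had a median CV of 4.63% to 5.62%. On glycerol the CV was 30.6% for RTO4_12062 and 22.1% for RTO4_12061, among the highest of the genes within 2-fold of their means, of which 99.2% and 96.8% had a CV up to that value. On d-glc the CV of RTO4_12061 was 33.8%, and 92.9% of genes at its level had a CV up to that. The high value of RTO4_12062 in the library labelled d-glc replicate 4 made most of its spread on glycerol, and between the libraries labelled glycerol the SD was 2.77 around a mean FPKM of 47.2.

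The genes most like each member were sought among the 7235 genes whose mean FPKM reached 5 on at least 1 carbon source, by Pearson correlation of log2(FPKM + 1) over the 9 libraries, which fall into 3 carbon sources. As a description, RTO4_8528 (0.999), RTO4_13270 (0.998, the Zn2Cys6 transcription factor gene that the study examined) and RTO4_9842 (0.998) were most like RTO4_12062. RTO4_8451, RTO4_10387 and RTO4_14839 (0.999, 0.999 and 0.998) were most like RTO4_11882. For RTO4_12061 these were RTO4_12920, RTO4_14229 and RTO4_9026 (0.998, 0.996 and 0.995), and for RTO4_9774 they were RTO4_13562, RTO4_12665 and RTO4_15550 (0.996, 0.995 and 0.995). Such values were not rare. A correlation over 0.99 was reached by 32 genes with RTO4_12062, 27 with RTO4_11882, 18 with RTO4_12061 and 13 with RTO4_9774. The correlation between pathway genes themselves was highest for RTO4_12062 with RTO4_9774, at 0.9903, and 28 genes were more like RTO4_12062 than RTO4_9774 was. RTO4_12061 and RTO4_12062, which lie near each other on the same scaffold, had 0.980, with 60 genes more like RTO4_12062 than RTO4_12061 was. The lowest value was 0.913 for RTO4_11882 with RTO4_12061. A correlation sees only the shape of a profile, and the level of RTO4_13270 averaged 92.7 FPKM on d-galUA, 12.4 on glycerol and 9.32 on d-glc, far below the dehydratase on d-galUA.

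The next gene models on either side were examined for all 4 genes. RTO4_11881, which ends 58 bp before RTO4_11882 on the same strand, averaged 54.8 ± 1.82 FPKM on d-galUA, 40.1 ± 5.34 on glycerol and 50.5 ± 6.82 on d-glc (SD, n = 3). RTO4_11883, 270 bp after it, had 78.5 ± 3.06, 68.6 ± 4.47 and 46.6 ± 6.89. For d-galUA the log2 fold change against glycerol was 0.45 for RTO4_11881 (limma adjusted p = 0.0137) and 0.75 against d-glc for RTO4_11883 (limma adjusted p = 2.98e-04). Beside RTO4_9774, RTO4_9773 had at most 0.401 FPKM in any library. RTO4_9775, 938 bp downstream, had 2552 ± 255 on d-galUA, 2291 ± 440 on glycerol and 3123 ± 381 on d-glc, and its difference on d-galUA did not pass the threshold (limma adjusted p = 0.433 against glycerol and 0.175 against d-glc). RTO4_11881, RTO4_11883 and RTO4_9775 thus had smaller log2 fold changes on d-galUA than the reductase gene beside them. RTO4_9773 averaged 0.301 FPKM on d-galUA, 0.0577 on glycerol and 0.127 on d-glc. Its log2 fold change against glycerol was 0.30 (limma adjusted p = 0.0635). These levels are too low for its ratios to be compared with those of RTO4_9774. The gene model RTO4_CAND94, which lies between RTO4_12061 and RTO4_12062 with 170 and 111 bp to either side, had log2 fold changes of 3.50 (d-galUA minus glycerol) and 3.36 (d-galUA minus d-glc). It averaged 39.3 ± 3.02 FPKM on d-galUA, far below both flanking genes, 2.58 ± 0.379 on glycerol and 2.95 ± 0.479 on d-glc. Between glycerol and d-glc, where both of its neighbors differed, it had a log2 fold change of -0.14 (limma adjusted p = 0.406). On the other side of the aldolase gene, 403 bp away, RTO4_12060 had log2 fold changes of 5.99 for d-galUA minus glycerol, above the 5.58 of RTO4_12061, and 6.18 for d-galUA minus d-glc (limma adjusted p = 4.20e-10 and 2.04e-10). It had at most 0.501 FPKM in any glycerol or d-glc library and 78.8 to 81.6 on d-galUA. On the scale of log2(FPKM + 1) its log2 fold changes therefore strongly understate its ratios. RTO4_12063, 154 bp beyond the dehydratase gene, had -0.03 and -0.41 in these comparisons (limma adjusted p = 0.916 and 0.137).

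Genes that act before and after these enzymes were taken from the study's notes and yeast orthologs, some of which the study had picked for induction in these libraries, so their counts are not independent evidence. As the background by the same adjusted p, d-galUA minus glycerol gave 25.2% of all genes higher and 24.1% lower, and d-galUA minus d-glc gave 24.9% higher and 25.8% lower. Of 8 genes of uptake and regulation, 6 had higher and 2 had lower levels on d-galUA than on glycerol (limma adjusted p under 0.05), with a median log2 fold change of 4.33 against 0.03 over all genes tested. Against d-glc 7 were higher and 1 did not pass the test, with a median of 7.17 against -0.00316 over all genes. The 2 lower than on glycerol were RTO4_13727 and RTO4_13731, homologs of GAT-1, a d-galUA transporter of ascomycetes. Their mean FPKM was 106 and 50.7 on d-galUA, 474 and 241 on glycerol, and 81.4 and 49.3 on d-glc. By the mean over the 9 libraries, the most abundant of them were the transporters RTO4_9841, RTO4_16194 and RTO4_9848, with a mean FPKM of 4605 ± 289, 3146 ± 121 and 2041 ± 333 on d-galUA. RTO4_9841 thus lay between the aldolase and the l-glyceraldehyde reductase gene there, and the other two lay below all 4 enzyme genes. RTO4_9841 had 77.7 ± 6.63 on glycerol and 23.2 ± 2.28 on d-glc, and RTO4_16194 had 41.4 ± 2.98 and 12.8 ± 1.63. RTO4_9848 was listed at 0 in each glycerol library, and as a paralog of RTO4_9841 it may share reads with it.

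Of 9 genes that handle the end products glycerol and pyruvate, d-galUA gave higher levels than glycerol for 5 and lower levels for 3. Compared with d-glc, 5 had higher and 4 had lower levels on d-galUA. Over all genes, 25.2% were higher and 24.1% lower in the comparison with glycerol, and 24.9% higher and 25.8% lower in that with d-glc. The medians were 1.29 and 0.94 on the log2 scale, against 0.03 and -0.00316 over all genes tested. By the mean over the 9 libraries, the most abundant were STL1 (RTO4_10704, a glycerol symporter) at a mean of 2361 ± 39.7 FPKM on d-galUA, 197 ± 15.2 on glycerol and 273 ± 27.6 on d-glc, TPI1 (RTO4_9300, triose phosphate isomerase) with 701 ± 47.6, 866 ± 42.7 and 999 ± 53.6, and ENO1/ENO2 (RTO4_9037, enolase) with 336 ± 16.3, 809 ± 84.7 and 899 ± 108. The genes lower on d-galUA than on both other carbon sources were TPI1, enolase and pyruvate kinase (RTO4_13002), while GUT1, GUT2, STL1, FBP1 and pyruvate carboxylase (RTO4_16630) were higher than on both. PCK1 (RTO4_10841, phosphoenolpyruvate carboxykinase) was lower on d-galUA than on d-glc, with a log2 fold change of -0.46 (limma adjusted p = 0.0299), and did not pass the test against glycerol (0.31, limma adjusted p = 0.118). Pyruvate kinase acts in glycolysis alone, whereas TPI1 and enolase act in glycolysis and gluconeogenesis.

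In T. reesei both reductase steps use NADPH. Of 3 genes of NADPH supply, GND1 (RTO4_15167, 6-phosphogluconate dehydrogenase) and ZWF1 (RTO4_10000, glucose-6-phosphate dehydrogenase) were higher on d-galUA than on glycerol and on d-glc, with log2 fold changes of 0.94 to 1.81, and MAE1 (RTO4_12761, malic enzyme) was lower than on both. The medians of these 3 genes were 0.94 against glycerol and 1.39 against d-glc, where those over all genes were 0.03 and -0.00316. Of 4 other aldo-keto reductase genes, found by yeast ortholog in the part of the study's table used here, d-galUA gave higher levels than glycerol for 3 and a lower level for 1. Against d-glc 3 were higher and 1 did not pass. Over all genes 25.2% were higher and 24.1% lower than on glycerol and 24.9% higher than on d-glc. The medians of the 4 genes were 0.43 against glycerol and 0.85 against d-glc, where those over all genes were 0.03 and -0.00316. By the mean over the 9 libraries, the most abundant of them were RTO4_14213 at a mean of 185 ± 12.6 FPKM on d-galUA, 147 ± 14.9 on glycerol and 194 ± 23.3 on d-glc, RTO4_11553 with 49.8 ± 4.48, 68.5 ± 6.87 and 23.4 ± 4.75, and RTO4_15409 with 82.6 ± 4.80, 24.6 ± 1.501 and 29.4 ± 14.1. The largest log2 fold change on d-galUA among these 4 was 1.71 against glycerol and 1.57 against d-glc, for RTO4_15409, so each had a smaller difference than RTO4_11882 and RTO4_9774, the aldo-keto reductases of the pathway.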

How the data were processed

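After mRNA selection the authors sequenced single-end reads of 50 bp. Mapping to the version 4 gene models was with HISAT2 2.1.0, and abundance was estimated with StringTie 1.3.3b. The authors deposited, per library and gene, FPKM (scaled to gene length and mapped reads), TPM (scaled to a common total) and coverage (a signal, mean reads per base). The paper names Ballgown for the authors' tests. Strand setting and treatment of reads that fit several genes are not given in the sources used here, so reads of near-identical genes may be shared.

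The tables were joined by gene ID. Mapped reads were computed from the deposited coverage and FPKM. The 8479 genes above 0 in at least 1 library were tested with limma 3.58.1 (R 4.3.3) on log2(FPKM + 1), fitting the 9 libraries together with a trend of variance on level, two-sided contrasts and Benjamini-Hochberg adjustment over all genes tested. Ratios were tested with an exact permutation of the F statistic over 1680 assignments. The fit was tested on simulated data with known changes. The labels do not give separate days or batches. The paper describes a single starter culture behind the triplicate cultures on all carbon sources. The p-values thus measure the spread between these cultures and not between independent starter cultures.

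The library labelled d-glc replicate 4 was counted with glycerol. Alternatives were the pseudocount (0.1, 5), a minimum FPKM, TPM, median-of-ratios scaling, quantile normalization, no trend, Ballgown's model, replicate number as a block, groups as labelled, and leaving out each library. Ballgown's model and test were rewritten here as a linear model with a library term, fitted to each pair of carbon sources. The Ballgown package was not run, and the paper's own values were calculated across all carbon sources together. Named genes were the 4 members, from each pathway list up to 3 genes with the highest mean FPKM over the 9 libraries plus genes needed for a count, the 3 most alike genes of each member, and neighbors in rank and on the scaffold. The members and lists were chosen with earlier results of these data known. No sequence was used here. Other values used Python 3.11.15, pandas 2.3.3 and scipy 1.17.1.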

Additional observations from a re-analysis of the deposited data

Results flagged for a closer look

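In the 4 libraries labelled d-glc, the library labelled replicate 4 stood apart from the others for the dehydratase and the aldolase gene. RTO4_12062 had an FPKM of 77.4 there, with a gap to the nearest library of 0.916 of the whole range, and RTO4_12061 had 124, with a gap of 0.858. In TPM the values were 115 for RTO4_12062 and 185 for RTO4_12061. The limit for 4 values is 0.829 (Dixon), which chance passes in about 1 of 20 groups. RTO4_11882 and RTO4_9774 did not pass it in either unit. This is the library that the study's table averages with glycerol. The groups of 3 libraries were not examined in this way.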

How the results depend on the processing

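For the 12 log2 fold changes of the 4 genes, 218 of 228 values under alternatives kept their direction and their side of the threshold, 10 kept the direction and lost the call, and 0 reversed. All 10 concern glycerol against d-glc. Groups taken as labelled gave -0.78 for RTO4_11882, 1.89 for RTO4_12061, and 0.47 for both RTO4_12062 and RTO4_9774. With Ballgown's model they were 1.09 for RTO4_12062 (adjusted p = 0.0503) and 0.41 for RTO4_9774 (adjusted p = 0.17). With each library left out in turn, RTO4_9774 ranged from 0.32 to 0.52, RTO4_12062 from 0.87 to 1.25, RTO4_12061 from 2.26 to 2.69 and RTO4_11882 from -0.98 to -0.74. Grouped as labelled, the span of the mean log2 ratio over carbon sources was 1.99 for RTO4_11882 to RTO4_12062 and 2.72 for RTO4_11882 to RTO4_12061, both past 0.05 no longer, and the numbers of genes called were 392 lower against glycerol (653 as used), 417 higher and 359 lower against d-glc (699 and 631), and 1 higher and 0 lower on glycerol against d-glc (763 and 832). At an unadjusted p under 0.05 limma gave 359 and 576 for the last comparison as labelled. Ranks on d-glc under these groups were 1024 for RTO4_11882, 2727 for RTO4_12062 and 2158 for RTO4_12061, and the TPM shares there were 0.00553% for RTO4_12062 and 0.00719% for RTO4_12061. Without d-galUA replicate 3, RTO4_12062 ranked 3 on d-galUA. The cause was not tested beyond the change of groups.

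Deviations of libraries with the same replicate number had correlations between -0.145 and 0.231. Libraries with different numbers had -0.263 to 0.353, so these values show no sign of pairing by number and cannot exclude it. With the replicate number as a block, which drops the library labelled d-glc replicate 4, all 12 calls were kept, with 0.90 for RTO4_12062 and 0.59 for RTO4_9774 on glycerol against d-glc, and 585 genes were called higher on d-galUA than on glycerol. Depth does not limit the values of the 4 genes, which had 38.6 reads per base or more.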
